A study of Rattus norvegicus with 40 samples.

Results

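The liver and the perirenal fat of wild-type rats were compared in 10 of the 40 RNA sequencing samples of a study of the gene Tti2, namely the 5 liver and the 5 fat samples whose labels gave the genotype as wild type. All 10 came from the inbred spontaneously hypertensive strain SHR/OlaIpcv, in animals that carried no Tti2 knock-out allele (Tti2+/+) and were littermates of heterozygous Tti2+/- rats. No treatment was given in the labels, and the age of the sequenced animals was not given in the sources used here. Of 6 wild-type rats, rats 1, 2, 4 and 5 gave both tissues, rat 6 gave liver alone and rat 3 gave fat alone, because the 5 samples with the best RNA quality were sequenced for each tissue. The labels named the depot peritoneal fat and the methods named it perirenal. The same tissues of the Tti2+/- rats, 5 samples each, and wild-type soleus muscle and hippocampus, 5 samples each, are given beside the results where they show how far a pattern held.

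The liver is made up mainly of hepatocytes, which produce most plasma proteins, make bile acids, store and release glucose and detoxify drugs. White fat stores triglycerides in adipocytes and releases fatty acids and hormones such as leptin and adiponectin, and beside the adipocytes it holds blood vessels, fibroblasts, precursor cells and immune cells. A whole tissue is a mixture, so fewer cells of a type and less RNA per cell cannot be told apart in the values below.

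Abundance was measured for 31715 transcripts, each with an estimated read count and a TPM value, which is the share of a transcript among all molecules, after allowing for its length, scaled to the same total in every sample. The total estimated count lay between 23868012 and 32318812 in the liver and between 24018315 and 26822062 in the fat, a difference that did not pass an exact two-sided permutation test (p = 0.659, n = 5 per tissue). The tables hold transcript identifiers with no gene names, and a gene table of assembly GRCr8 matched 0 of the 31715 identifiers. The tissue labels were therefore not checked against marker genes, and 4 transcripts are named by identifier. In place of markers, log2(TPM + 1) was correlated between samples across all transcripts, which are not independent replicates. Pearson's r was 0.986 to 0.990 between livers, 0.982 to 0.989 between fat samples and 0.749 to 0.768 between a liver and a fat sample, so every sample resembled its own labelled tissue most.

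Fewer transcripts were expressed in the liver than in the fat. At a TPM of at least 1, the level taken here as expressed, the livers of rats 1, 2, 4, 5 and 6 held 13999, 13826, 13789, 13855 and 13973 transcripts. The fat of rats 1, 2, 3, 4 and 5 held 16855, 16739, 16311, 16554 and 16617. The lowest fat sample lay above the highest liver. The means were 13888 ± 92.6 (SD, n = 5) in the liver and 16615 ± 206 (SD, n = 5) in the fat, 1.20-fold more in fat (exact two-sided permutation test, p = 0.00794, the smallest value that 5 samples against 5 can give).

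The gap depended on the level. It was widest in relative terms at a TPM of at least 10, where the means were 5581 ± 95.6 in liver and 8770 ± 178 in fat (SD, n = 5 each), a ratio of 1.57. At 100 TPM or more the liver held 925.6 ± 10.3 transcripts and the fat 1252 ± 29.5. At 1000 TPM or more the tissues overlapped, with 100 to 107 transcripts in the livers and 95 to 109 in the fat samples (exact permutation test, p = 0.865). The median TPM of the expressed transcripts was 7.002 ± 0.157 in liver and 11.1 ± 0.310 in fat (SD, n = 5 each; exact permutation test, p = 0.00794).

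**Figure D1:**
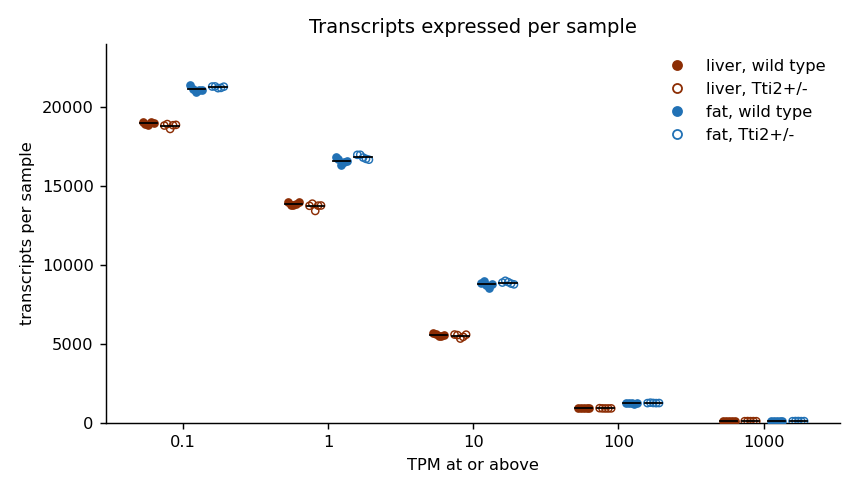
Number of transcripts (vertical axis) at or above each TPM level (horizontal axis) in every liver and fat sample, with filled points for wild-type and open points for Tti2+/- rats and a black line at the mean of 5 samples. Fat lies above liver at 0.1, 1, 10 and 100 TPM in both genotypes, and the tissues overlap at 1000 TPM.

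TPM is a share, and a tissue with a few very abundant transcripts has less of that total left for the others. The size of the difference moved with how this was handled. Counted as transcripts with 5 or more estimated counts, with no use of TPM, the means were 18236 in liver and 19974 in fat. Those counts were not thinned. Samples of both tissues, the fat more than the liver, were then thinned so that transcripts of middling abundance had equal depth. The means were 18140 in liver and 18793 in fat, and the difference of liver minus fat shrank to -653 transcripts (exact permutation test, p = 0.00794). When the 172 transcripts that were among the 100 highest of either tissue were left out and TPM was rescaled, means of 16221 in liver and 17794 in fat were left at a TPM of at least 1.

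Most of what the liver expressed was also expressed in the fat. A TPM of at least 1 was reached in all 5 livers by 12598 transcripts and in all 5 fat samples by 15125. The lists shared 11450 transcripts, which were 90.9% of the liver list and 75.7% of the fat list. Of the liver list, 683 transcripts stayed under a TPM of 1 in every fat sample, whereas 2273 of the fat list did so in every liver. No count at all was assigned to 7642 transcripts in any liver and to 6368 in any fat sample, of which 5368 were the same transcripts. Wild-type muscle, with 12989 to 13748 transcripts at a TPM of at least 1, lay below the liver, and hippocampus, with 17629 to 18095, lay above the fat.

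The liver put more of its RNA into few transcripts. Its single most abundant transcript held 7.73% ± 0.345 of TPM and that of the fat held 3.51% ± 0.200 (SD, n = 5 each). The 10 highest transcripts of each sample held 25.9%, 25.6%, 26.7%, 26.96% and 25.8% of TPM in the livers of rats 1, 2, 4, 5 and 6, and 20.2%, 20.1%, 22.3%, 23.3% and 20.4% in the fat of rats 1 to 5. Every liver lay above every fat sample, with means of 26.2% ± 0.591 and 21.3% ± 1.45 (SD, n = 5; exact permutation test, p = 0.00794). The gap was larger at the 100 highest, which held 59.7% ± 0.468 in liver and 42.1% ± 1.55 in fat.

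The number of transcripts that together held 50% of TPM was several-fold lower in the liver. It was 45, 45, 42, 42 and 46 in the livers of rats 1, 2, 4, 5 and 6. In the fat of rats 1 to 5 it was 211, 224, 190, 169 and 203. The means were 44.0 ± 1.87 and 199.4 ± 21.0 (SD, n = 5 each), a ratio of 4.53 (exact permutation test, p = 0.00794). To reach 90% of TPM, the liver needed 2165 ± 60.4 transcripts and the fat 4782 ± 160 (SD, n = 5 each). By this 50% measure the liver lay between muscle, with 24 to 26 transcripts, and hippocampus, with 255 to 382. The fat lay nearer to the hippocampus. The order was not the same for the 10 highest transcripts. These held 28.4% to 30.4% of TPM in muscle, above every liver. In the hippocampus of rats 1, 2, 3, 5 and 6 they held 25.5%, 28.7%, 23.2%, 24.8% and 23.9%. Only rat 2 rose above the lowest liver, and only rat 3 lay below the highest fat sample. The paper left a single outlier hippocampus sample out of its own tests and does not name it.

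**Figure D2:**
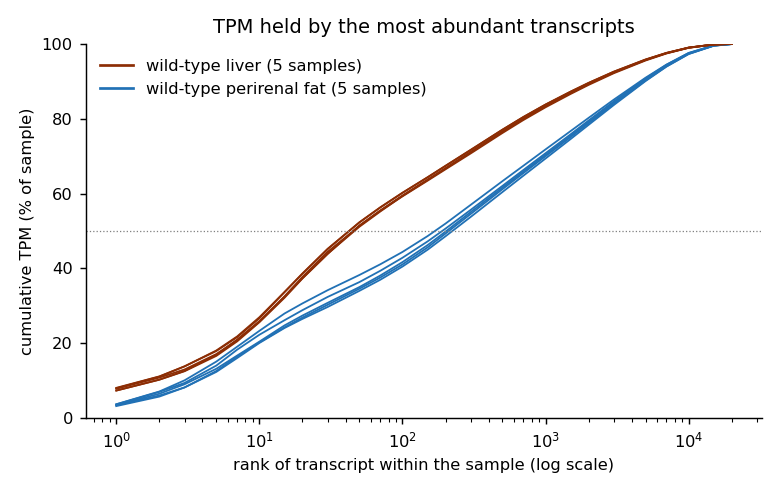
Cumulative share of TPM (percent, vertical axis) against the rank of the transcript in its sample (log scale, horizontal axis) for the 5 wild-type livers and the 5 wild-type fat samples, 1 line per sample. The liver lines cross the dotted line at 50% between 42 and 46 transcripts and the fat lines between 169 and 224.

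Part of the order within the most abundant transcripts rested on short ones. Among the 10 transcripts with the highest mean TPM, 3 of the liver and 1 of the fat were shorter than 300 bases. The 3 in liver held 6.44% of TPM and 0.185% of estimated counts, since a short transcript gives few reads per molecule and its TPM rests on a small effective length. Without transcripts under 300 bases the 10 highest held 27.2% in liver and 21.7% in fat, and means of 50 and 215 transcripts held 50% of TPM. By estimated counts instead of TPM, the 10 highest held 23.3% of the liver and 10.6% of the fat. Weighted by TPM, the mean transcript length was 1347 ± 9.15 bases in liver and 1447 ± 21.0 in fat (SD, n = 5 each; exact permutation test, p = 0.00794).

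Most of the 100 highest transcripts of the liver were far higher there than in fat, and most of those of the fat were not far higher than in liver. The lists of the 100 transcripts with the highest mean TPM shared 28 transcripts. Those 28 held 18.1% to 19.7% of TPM in the livers and 25.01% to 28.4% in the fat samples, which was 31.6% of the TPM of the liver list and 62.2% of that of the fat list. Of the liver list, 64 were at least 100-fold higher in liver than in fat. They held 38.4% to 40.3% of TPM in the livers and 0.0448% to 0.116% in the fat samples. Of the fat list, 13 were at least 100-fold higher in fat, and they held 4.76% to 5.90% of TPM there.

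The most abundant liver transcript among those that differed was ENSRNOT00000003921.4, of 2069 bases. Its TPM was 73585, 73629, 80879.6, 79852 and 78315 in the livers of rats 1, 2, 4, 5 and 6. In the fat of rats 1 to 5 it was 176, 77.5, 109, 151 and 75.3. The tissues did not overlap, and in fat the values of rats 1 and 4 were the highest. The log2 fold change of liver over fat, fitted on TMM-normalised counts, was 10.12 with an SE of 0.50 (quasi-likelihood test of edgeR, Benjamini-Hochberg adjusted p = 7.3e-09). It averaged 2.14 TPM in muscle and 4.86 in hippocampus (n = 5 each), so its level in fat, 118 ± 44.9 TPM (SD, n = 5), was above that in the other tissues without being near that of the liver.

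The next, ENSRNOT00000090960.1, has 207 bases and is 1 of the short transcripts whose TPM rests on a small effective length. Its TPM was 29259, 29014.5, 30651, 31032 and 29925 in the livers. In the fat of rats 1 to 5 it was 56.1, 8.47, 9.59, 45.1 and 14.6, with rats 1 and 4 again the highest. As normalised counts it reached 709 ± 35.7 CPM (read counts scaled to library size, SD, n = 5) in the livers and 0.0791 to 0.615 CPM in the fat samples, where 3 counts correspond to 0.0844 CPM. The log2 fold change was 11.22 with an SE of 0.31 (edgeR's quasi-likelihood test, adjusted p = 5.6e-11). It was listed at 0 in all 5 muscles and averaged 105 TPM in hippocampus, more than in fat.

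The 2 most abundant transcripts called higher in fat differed in how far they were shared. ENSRNOT00000014701.7, of 667 bases, had a TPM of 19079, 19302, 21950, 21164 and 19981 in the fat of rats 1 to 5. In the livers of rats 1, 2, 4, 5 and 6 its TPM was 0.796, 0.937, 0.730, 1.88 and 1.90, and its log2 fold change of liver over fat was -12.68 with an SE of 0.28 (edgeR's quasi-likelihood test, adjusted p = 9.3e-12). It averaged 164 TPM in muscle and 0.799 in hippocampus.

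ENSRNOT00000014180.6, of 1586 bases, had a TPM of 19932, 19985, 22664, 18729.6 and 19797 in the fat of rats 1 to 5. In the livers of rats 1, 2, 4, 5 and 6 it was 1888, 1315, 1855, 1735 and 906. The tissues did not overlap, but the transcript was abundant in both, and the log2 fold change of liver over fat was -2.49 with an SE of 0.22 (edgeR's quasi-likelihood test, adjusted p = 1.2e-06). It averaged 1210 TPM in muscle and 2.62 in hippocampus. The ratio of the tissues thus differed by orders of magnitude between the transcripts at the top of the fat list.

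Across all transcripts the tissues differed at the majority of those tested. Of 20097 transcripts with enough counts, 12005 were called, which is 59.7% (quasi-likelihood test of edgeR, with limits of 0.1 on the adjusted p and 1.5 on the fold change). Higher in liver were 5533, or 27.5% of those tested, and higher in fat were 6472, or 32.2%. The split rests on the scaling. TMM factors, which set the middle of the transcripts equal, were 0.696 to 0.735 in the livers and 1.36 to 1.42 in the fat samples, and the median log2 fold change was -0.06. With scaling to the total count alone the median log2 fold change was -1.01, and 2730 transcripts were called higher in liver and 12419 higher in fat. The liver's part of the calls was thus 46.1% with TMM and 18.0% with totals. Calls relative to TMM are relative to the median transcript and not to the amount of RNA per cell.

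In the Tti2+/- rats, which the wild-type test did not use, 11840 of 20021 transcripts were called (59.1%), 5299 higher in liver (26.5%) and 6541 higher in fat (32.7%). Of the wild-type calls, 11756 were tested in Tti2+/- rats and 10649 of those (90.6%) were called there in the same direction. The direction was opposite for 68, of which 7 were called. Transcript counts and shares also had the same order in the Tti2+/- rats. They expressed 13715 ± 174 transcripts in liver and 16831 ± 144 in fat, and 43.6 ± 0.894 and 203.8 ± 5.89 transcripts held 50% of TPM (SD, n = 5 each; exact permutation test, p = 0.00794 for each). The genotypes were not tested against each other here.

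**Figure D3:**
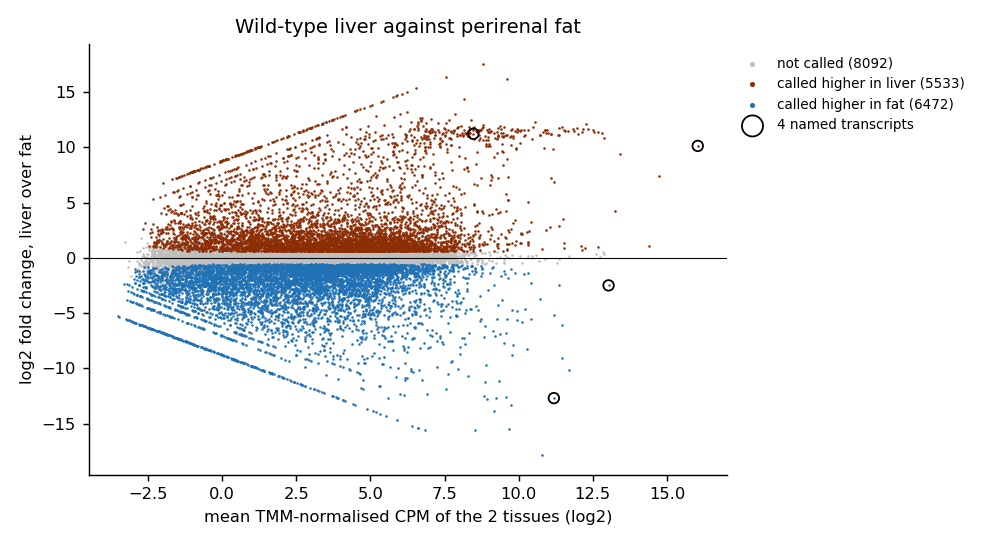
Log2 fold change of wild-type liver over fat (vertical axis) against the mean CPM of the tissues on a log2 scale (horizontal axis), 1 point for each of 20097 transcripts, coloured by call, with the 4 named transcripts circled. High-abundance points with large fold changes lie mostly on the liver side, and straight lines of points at the outer edges are transcripts with no or very few counts in the other tissue.

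Large differences favoured the liver, and modest ones the fat. For the sizes below, a transcript with fewer than 3 counts per library in a tissue was set to that level, 0.157 CPM in liver and 0.0844 CPM in fat, so that folds against it are lower bounds. At least 4-fold higher in liver were 2271 of the called transcripts, and at least 4-fold higher in fat were 3020. At 16-fold the numbers were 1082 and 1015. At 100-fold they were 560 and 196, and at 1000-fold 261 and 27. The lowest level allowed is higher in liver, so a fat transcript needs more counts to reach a given fold. With scaling to totals the numbers at 100-fold were 454 in liver and 355 in fat, and with a lowest level of 10 counts they were 446 and 120. In the Tti2+/- rats, 556 and 198 were at least 100-fold higher, and 533 of the 560 and 178 of the 196 wild-type transcripts were in the same class.

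The 560 transcripts of the liver class held 46.5% to 48.5% of TPM in the livers, whereas the 196 of the fat class held 7.38% to 8.91% in the fat samples. In the fat of rats 1, 2, 3, 4 and 5, the liver class held 0.148%, 0.0609%, 0.0743%, 0.119% and 0.0690% of TPM, highest in the same 2 rats as the named liver transcripts, which belong to it. The Tti2+/- fat samples ranged from 0.0708% to 0.212%. In muscle the same transcripts held 0.104% to 0.135% and in hippocampus 0.223% to 0.313%. Each class was chosen for low levels in the other tissue of the pair, and muscle and hippocampus had no part in the choice. The low sum of the liver class in fat, and of the fat class in liver, therefore follows from the choice. The fat class held 0.00581% to 0.00671% of TPM in the livers, 0.429% to 0.625% in muscle and 0.456% to 0.4999% in hippocampus. Of the liver class, 14 (2.50%) in muscle and 55 (9.82%) in hippocampus came within 10-fold of their liver level. Of the fat class, 65 (33.2%) came within 10-fold of their fat level in each of these tissues. The same share was not computed over all transcripts, so whether these values are unusual is not known.

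Restriction in the strict sense, set by limits on TPM, went the other way in number. A transcript was called restricted when its TPM was at least 1 in all 5 rats of a tissue and under 0.1 in all 5 rats of the other. This held for 208 transcripts in liver, 1.65% of those expressed in every liver, and for 404 in fat, 2.67% of those expressed in every fat sample. A TPM of 0.1 corresponded to a median of 4.25 to 5.55 counts in the livers and 3.17 to 3.64 in the fat samples. The same rule in the Tti2+/- rats found 180 and 443, and 135 (64.9%) of the wild-type liver list and 313 (77.5%) of the fat list were among them. No test was made, since transcripts are not replicates. The limits are on TPM, a share that is not TMM-scaled, whereas the 100-fold classes used TMM-normalised counts. With totals, which are shares as well, the median log2 fold change was -1.01, beside -0.06 with TMM. Relative to TMM-normalised counts, a limit on such a share asks more of a liver transcript than of a fat one. The measures also differ in the rule on every rat and in the lowest level allowed. Which of these gives the different order of the counts was not tested. Defined as called and at least 100-fold by edgeR's fold change, the numbers were 725 in liver and 473 in fat.

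The restricted transcripts were mostly of low abundance. Their median TPM in their own tissue was 6.86 in liver and 4.41 in fat, and 7 of the 208 and 22 of the 404 reached 100. The highest had a mean TPM of 453 in liver and 4923 in fat. Together they held 0.396% to 0.441% of TPM in the livers and 1.39% to 1.90% in the fat samples. In liver, 131 transcripts were both restricted and in the 100-fold class, which was 23.4% of the 560 and 63.0% of the 208. In fat, 95 were both, which was 48.5% of the 196 and 23.5% of the 404. The median TPM of the 560 in fat was 0.165 and that of the 196 in liver was 0.0436, so the liver class more often stayed above the limit of 0.1 in the other tissue. The restricted liver transcripts had a median length of 1730 bases and the fat ones 2214, beside 2001 and 2035 for the transcripts expressed in each tissue.

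Liver-restricted transcripts were off in the other tissues more often than fat-restricted ones. In muscle, 187 (89.9%) of the liver list were under a TPM of 0.1 in all 5 rats, and in hippocampus 121 (58.2%) were. In muscle, 36 (8.91%) of the fat list were under that limit, and in hippocampus 54 (13.4%) were. Over all transcripts 32.2% were under it in muscle and 22.3% in hippocampus. Over those expressed in every liver the shares were 4.45% and 3.08%, and over those expressed in every fat sample 0.893% and 1.46%. The fat list thus lay below all transcripts and above the transcripts expressed in fat. Off in both muscle and hippocampus were 116 (55.8%) of the liver list and 11 (2.72%) of the fat list. Expressed at a TPM of at least 1 in every rat of muscle or of hippocampus were 28 (13.5%) of the liver list and 243 (60.1%) of the fat list. Over all 31715 transcripts the shares were 19.3% off in both and 54.6% expressed in either. Over the transcripts expressed in every liver they were 2.18% and 90.4%, and over those expressed in every fat sample 0.298% and 90.9%. The share of the fat list expressed elsewhere thus lay near that of all transcripts and below that of the transcripts expressed in fat, as a description with no test.

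**Figure D4:**
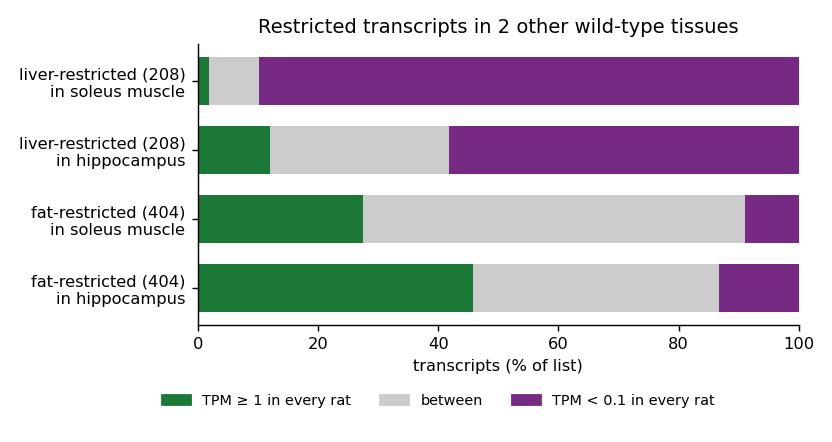
Share of the 208 liver-restricted and 404 fat-restricted transcripts (percent of list, horizontal axis) that had a TPM of at least 1 in every rat (green), a TPM under 0.1 in every rat (purple) or neither (grey) in wild-type soleus muscle and hippocampus, 5 rats each. Purple fills 89.9% and 58.2% of the liver bars and 8.91% and 13.4% of the fat bars. Over all transcripts, not drawn, the same shares were 32.2% in muscle and 22.3% in hippocampus.

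The rat-to-rat differences of liver and fat overlapped. For 13951 transcripts with a mean of at least 1 CPM in both tissues, each sample was compared with the mean of the other 4 samples of its tissue, and the median absolute difference in log2 CPM was taken. It was 0.136, 0.135, 0.125, 0.113 and 0.142 in the livers of rats 1, 2, 4, 5 and 6. In the fat of rats 1 to 5 it was 0.108, 0.0949, 0.163, 0.122 and 0.0847. The tissues overlapped, with rat 3 the farthest from the others in fat and the livers close together. The means were 0.130 ± 0.0113 in liver and 0.114 ± 0.0305 in fat (SD, n = 5 each), a difference that did not pass the exact permutation test (p = 0.302). Without the fat of rat 3 the fat mean was 0.101 and the difference, 0.0289, passed (exact permutation test, p = 0.0317), so this comparison turned on 1 sample. Each fat sample was then set against fewer others than each liver. The values of a tissue depend on each other, since each sample enters the means of the others. The p-values of this measure are therefore only approximate. In the Tti2+/- rats the means were 0.137 and 0.114 (exact permutation test, p = 0.103).

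With all 5 rats the order of the tissues changed with abundance, and the change at 100 CPM or more rested on the fat of rat 3. The median SD over 5 rats, in log2 CPM, was 0.286 in liver and 0.233 in fat for 3946 transcripts with a mean of 1 to 10 CPM in both tissues, and 0.114 and 0.0986 for 5595 with 10 to 100 CPM. For the 666 transcripts with 100 CPM or more it was 0.0715 in liver and 0.0873 in fat, and 0.0710 in fat without rat 3. TMM scaling leaves fewer counts behind a given CPM in liver, and counting error alone gives a median SD of 0.0838 in liver and 0.0606 in fat over the 13951 transcripts. At equal TMM-scaled depth the median SD over all of them was 0.161 in liver and 0.154 in fat, and 0.130 in fat without rat 3. With all 5 rats the SD at that depth was the larger in liver for 52.9% of them, compared with 58.1% at the full depth.

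**Figure D5:**
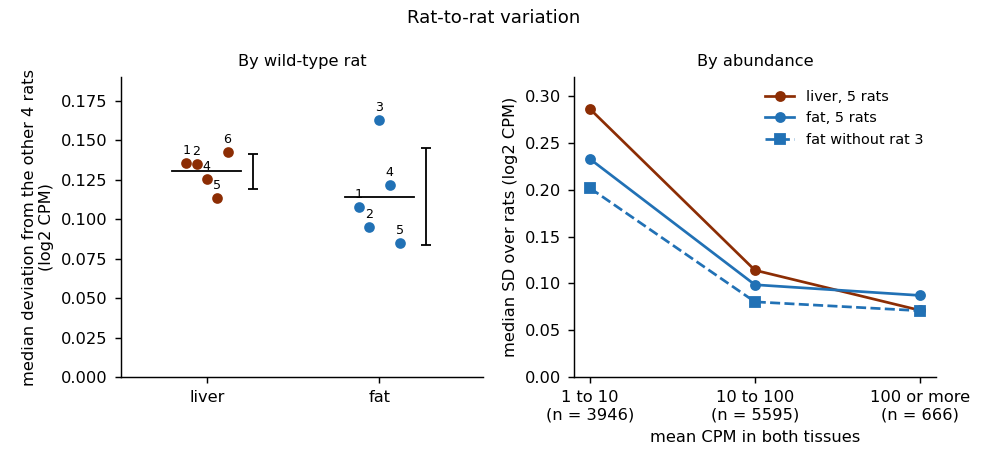
Left, the median absolute difference of each wild-type sample from the other 4 of its tissue (log2 CPM, vertical axis), labelled by rat, with the mean as a line and its SD as a bar, over 13951 transcripts. Right, the median SD over rats (log2 CPM) in classes of mean CPM in both tissues, with n the number of transcripts. Rat 3 is the highest fat sample. The liver line lies above the solid fat line in the lower 2 classes and below it at 100 CPM or more. The dashed line leaves out the fat of rat 3, and at 100 CPM or more it lies at 0.0710, beside 0.0715 for liver.

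Few transcripts varied widely between the rats of a tissue. Among 7234 transcripts with a mean of at least 10 CPM in both tissues, the highest rat exceeded the lowest at least 4-fold for 32 (0.442%) in liver and 17 (0.235%) in fat. The lists shared 4 transcripts, 12.5% of the liver list and 23.5% of the fat list. In the fat, rat 3 was the lowest for 10 of the 17 and the highest for 3, and without it 5 transcripts kept a range of that size. In the liver no rat stood out in this way, rat 6 being the highest for 10 of the 32 and rat 1 the lowest for 10. In the Tti2+/- rats 45 and 21 of 7238 transcripts had such a range.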

How the data were processed

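Libraries were strand-specific, from poly(A) RNA, and were read from a single end. The authors estimated transcript abundance with kallisto. The submitters' processing notes give version 0.46.0 and build rn6, whereas the methods give a different kallisto version and an Ensembl cDNA set. For each sample an estimated count, which need not be whole, and a TPM value per transcript were deposited. How reads of near-identical transcripts are divided is an estimate, and its uncertainty was not used here.

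Estimated counts were rounded and fitted in R 4.3.3 with edgeR 4.0.16 (TMM, quasi-likelihood F-test, tissue as the only term). A transcript entered when 47% or more of the 10 samples held 5 or more counts. The limits for a call were 0.1 for the p-value adjusted by Benjamini-Hochberg and 1.5 for the fold change. DESeq2 1.42.0 was an alternative. Single values per sample were compared by exact two-sided permutation over 252 assignments. log2 CPM used a prior count of 1. All libraries of a tissue differed from each other beyond sampling noise (chi-square per degree of freedom of 10.7 or more), and the floors cover counting error only. The SEs of the fold changes come from the quasi-likelihood fit, which includes the spread between samples. On simulated data for this comparison (19730 transcripts), edgeR recovered 70.1% of 97 transcripts changed 1 log2 unit and 88.9% of 99 changed 2 log2 units, and 6.59% of its calls were false. DESeq2 recovered 77.3% and 92.9%, with 23.0% false. The simulation changed 200 transcripts, up and down alike, around a mean common to both tissues. It held no shift in composition like that between liver and fat, so these rates do not carry over to the real contrast.

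Rat numbers in the labels pair the tissues of rats 1, 2, 4 and 5. Deviations from the tissue means correlated at -0.0970 to 0.0516 within a rat and at -0.0875 to 0.0859 between rats. The 4 named transcripts are the 2 called higher in each tissue with the highest mean TPM there. The comparison, lists and limits were chosen with earlier results of these data known. Muscle and hippocampus of Tti2+/- rats were not used here, and a planned marker list was not applied for want of gene names.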

Additional observations from a re-analysis of the deposited data

How the results depend on the processing

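Every sign and call of the 4 named transcripts held wherever they were tested, in 82 values summed over the transcripts and the alternative settings. The filter of 10 counts in every sample removed ENSRNOT00000090960.1 and ENSRNOT00000014701.7, so these were not tested under it. Among the other results, 206 values kept their direction and their side of the threshold or, for counts, stayed within 1.5 times of the count reported, and the rest follow. With rat as a replicate block, on the 4 rats with both tissues, the expressed transcripts differed by -2824 (liver minus fat), the 10 highest held 5.27 percentage points more TPM and the number holding 50% differed by -158. Each had the direction seen unpaired in 4 of 4 rats and an exact sign-flip p of 0.125, the smallest that 4 pairs allow. The block gave 11769 calls, and the same 8 samples without it 12001. At a TPM of 1000 the expressed transcripts differed by 0.6, against the direction at lower levels. Restricted transcripts numbered 99 in liver and 142 in fat at a TPM of 5 against 0.1, 496 and 1356 at 1 against 0.5, and 725 in liver and 473 in fat when defined as called and at least 100-fold by edgeR's fold change, which turned the order. Leaving out each sample gave 211 to 260 and 411 to 447. A filter of 10 counts in every sample, which removes single-tissue transcripts by construction, left 7677 calls, 3754 higher in liver and 3923 in fat, and a fold limit of 4 left 5609, 2272 and 3337. Totals in place of TMM gave 2730 and 12419. DESeq2 called 11952, and leaving out each sample gave 10747 to 11514. The 100-fold class of fat held 355 transcripts with totals, beside 454 in liver, and 120 with a floor of 10 counts, beside 446. The difference in rat-to-rat deviation, 0.0159, was -0.0146 at 100 CPM or more (exact permutation test, p = 0.294), and 0.00316 to 0.0289 with each sample left out, the highest without the fat of rat 3. The common biological coefficient of variation differed by 0.00540. The cause of these changes was not tested, apart from the filter's own construction. Alternatives at a TPM of 1000, at 100 CPM, with other floors, with totals for the 100-fold classes and at TMM-scaled depth were chosen after seeing the data. A TPM of 0.1 is a handful of counts, and with limits of 30 and 3 counts after thinning to equal totals the restricted lists held 199 and 301.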
